A study of Rattus norvegicus with 8 samples.

Results

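miR-143 and miR-145 are a pair of miRNAs, short RNAs that lower the output of messenger RNAs, made from neighbouring hairpins of 1 locus. The array named 758 rat miRNAs, of which 4 had names beginning rno-miR-143- or rno-miR-145-. These were rno-miR-143-3p, rno-miR-143-5p, rno-miR-145-5p and rno-miR-145-3p (written below without the species prefix), found by their names. miR-143-3p and miR-145-5p were detected on all 8 arrays, and the other 2 strands were detected on 0 arrays.

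The tissue was the prostatic urethra of male Sprague Dawley rats aged 10 to 12 months, taken 5 days after an operation. For the TULP group, the bladder had been incised and irrigated with saline, and a microcystoscope passed through its neck into the urethra. The uroepithelium of the prostatic urethra was then vaporized by a thulium laser, to simulate transurethral laser prostatectomy (TULP) on otherwise normal rats. The sham group had only an incision of the abdomen, and tissue was taken from the same place. The groups thus differ by the bladder surgery and the instrument as well as by the laser. Each group had 4 rats with 1 array each, named here by group and by the replicate number in the titles. The sample descriptions of the TULP arrays name sham surgery, against their titles, so each direction below rests on the titles.

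A miRNA hairpin yields a duplex of 2 strands, from its 5′ and 3′ arms (5p and 3p). Usually 1 strand, the guide, is kept by the Argonaute protein, and the other, the passenger strand, is lost. The guide finds its targets mainly through its seed, bases 2 to 8. miR-143 and miR-145 are known as the miRNAs of smooth muscle, where serum response factor and myocardin drive their locus, and they favour the contractile state over the proliferating one. In most organs they are found mainly in smooth muscle cells and fibroblast-like stromal cells, and little in epithelium. The wall of the prostatic urethra and the stroma of the prostate are rich in smooth muscle.

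The mature sequences of the 4 strands, from RefSeq, are shown with the seed in capitals, because the array reads each strand separately and each carries a seed of its own. All 4 names matched RefSeq.

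miR-143-3p: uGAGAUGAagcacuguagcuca

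miR-143-5p: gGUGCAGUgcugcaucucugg

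miR-145-5p: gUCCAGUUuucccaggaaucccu

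miR-145-3p: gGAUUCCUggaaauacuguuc

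The 4 seeds differed from each other, and none of the 4 was found in another mature miRNA of the 693 in the RefSeq table. In the rat assembly GRCr8 the hairpin gene Mir145 lies at chr18:57369983-57370070 and Mir143 at chr18:57371349-57371453, both on the minus strand. Their lengths are 88 and 105 bases, and 1278 bases lie between them. Both fall within the long noncoding RNA gene Carmn (chr18:57368191-57389112), whose transcript is known as their host. Whether they lie in an exon or an intron of it was not looked up here.

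The array reads each strand with 2 probes of different length, each printed on 8 spots. The probes of the 2 detected strands are shown because their lengths bear on the values that follow.

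miR-143-3p, longer probe: TGAGCTACAGTGCTTCATC

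miR-143-3p, shorter probe: TGAGCTACAGTGCTTCAT

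miR-145-5p, longer probe: AGGGATTCCTGGGA

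miR-145-5p, shorter probe: AGGGATTCCTGGG

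The miR-143-3p probes pair with bases 4 to 22 and 5 to 22 of the miRNA, and the miR-145-5p probes with bases 10 to 23 and 11 to 23. In each case 0 other RefSeq mature miRNAs held the whole paired stretch. A probe signal is a background-subtracted intensity on a linear scale. It was called detected where it exceeded 3 times the error that the scanner software gives it, and the signal of a miRNA was the sum over its detected probes.

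miR-143-3p was among the brightest miRNAs of the tissue in both groups, and no difference between the groups was found after quantile normalization. On the sham arrays 1 to 4 its signal before normalization was 769.7, 1091, 1081 and 869. On the TULP arrays 1 to 4 it was 920.0, 590, 456 and 401. TULP replicate 1 lay among the sham arrays, and the other TULP arrays were below every sham array. The sham mean was 953 ± 159 (SD, n = 4) and the TULP mean 592 ± 233 (SD, n = 4).

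Ranked among the miRNAs detected on its array, miR-143-3p stood at 8, 7, 8 and 11 in the sham rats and at 5, 8, 10 and 11 in the TULP rats. It gave 2.33% to 4.31% of the summed signal of the sham arrays and 2.30% to 4.73% of that of the TULP arrays. By rank and by share, then, the groups lay over each other. The arrays themselves differed in brightness. The summed signal of detected miRNAs was 21075 to 37357 on the sham arrays and 16787 to 19464 on the TULP arrays, and 146 to 156 and 136 to 151 miRNAs were detected, respectively.

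Quantile normalization, which the study also used, gives each array the same set of values, so a miRNA's value follows from its rank. The normalized log2 value of miR-143-3p was 9.67, 9.80, 9.67 and 9.29 in the sham rats, and in the TULP rats 10.32, 9.67, 9.42 and 9.29. The highest value was that of TULP replicate 1, and the lowest was shared by replicate 4 of each group. The sham mean was 9.61 ± 0.22 (SD, n = 4) and the TULP mean 9.68 ± 0.46 (SD, n = 4). The difference, TULP minus sham, was 0.068 ± 0.24 (SE) on the log2 scale, with a 95% confidence interval of -0.49 to 0.63 (limma, adjusted p = 0.905 over 151 miRNAs tested). The interval lies within a change of 2-fold in either direction.

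miR-145-5p was much dimmer. Its signal before normalization was 27.4, 39.2, 27.3 and 31.3 in the sham rats, and in the TULP rats 32.3, 20.2, 12.5 and 6.89. As for miR-143-3p, TULP replicate 1 lay within the sham range and the other TULP arrays lay below it. The sham mean was 31.3 ± 5.60 (SD, n = 4) and the TULP mean 17.97 ± 10.98 (SD, n = 4).

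The rank of miR-145-5p was 69, 60, 76 and 79 in the sham rats, and in the TULP rats 62, 77, 96 and 121. Its share of the summed signal was 0.0839% to 0.155% on the sham arrays and 0.0395% to 0.166% on the TULP arrays. By rank TULP replicates 1 and 2 lay within the sham range. By share TULP replicate 2 lay within it and TULP replicate 1 just above it. TULP replicates 3 and 4 lay below the sham range by both.

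The normalized log2 value of miR-145-5p was 4.85, 5.17, 4.55 and 4.47 in the sham rats, and in the TULP rats 5.10, 4.52, 3.88 and 3.01. The groups overlapped, and the TULP arrays were spread the wider. The sham mean was 4.76 ± 0.32 (SD, n = 4) and the TULP mean 4.13 ± 0.90 (SD, n = 4). The difference was -0.63 ± 0.44 (SE) on the log2 scale, with a 95% confidence interval of -1.65 to 0.39 (limma, adjusted p = 0.356). The difference did not pass the test with this normalization, but the interval includes a fall of more than 2-fold.

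**Figure D1:**
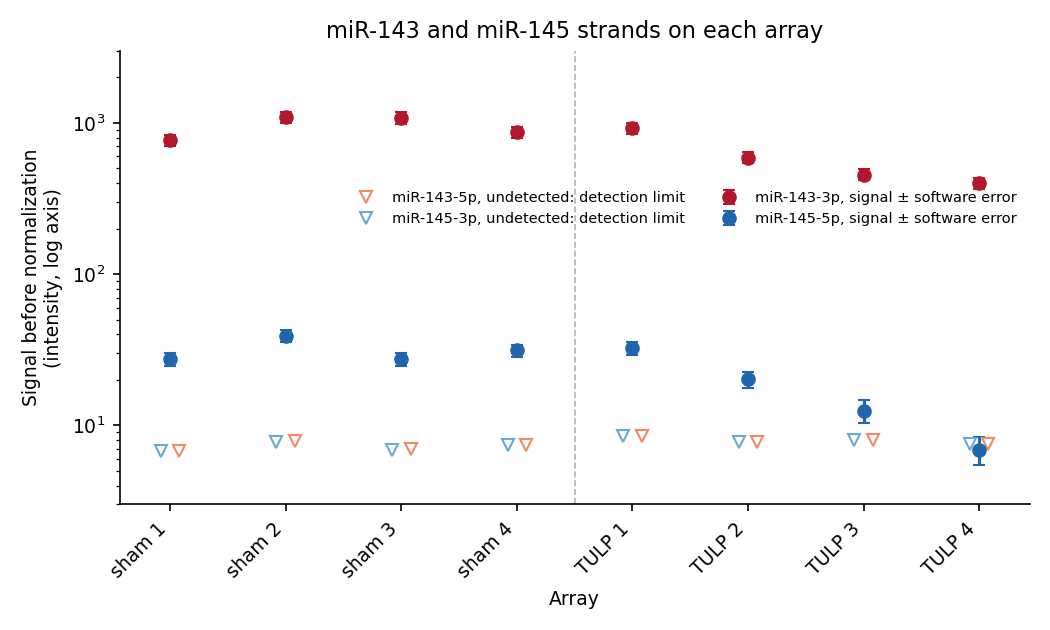
Signal of miR-143-3p and miR-145-5p on each sham and TULP array (intensity before normalization, log axis) with the error given by the scanner software. Open triangles give the summed detection limits of the undetected strands miR-143-5p and miR-145-3p. For both detected miRNAs TULP replicate 1 lies within the sham range and the other TULP arrays lie below it. After normalization, not drawn here, the groups overlapped and the TULP arrays spread more (SD 0.46 against 0.22 for miR-143-3p, and 0.90 against 0.32 for miR-145-5p).

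Among all 151 miRNAs tested, 46 (30.5%) passed an adjusted p of 0.05 in limma, while of the 2 members tested 0 did, and 0 passed without adjustment either, as 65 of the 151 did. The groups did not overlap for 44 miRNAs (29.1%), and again for 0 of the 2 members. The median difference over all 151 was -0.023 on the log2 scale, with 80 miRNAs lower and 71 higher in the TULP group.

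The outcome for both members depended on how arrays were scaled. Without normalization the difference was -0.75 for miR-143-3p (limma, adjusted p = 0.0635) and -1.01 for miR-145-5p (adjusted p = 0.0769), while the median of all tested miRNAs was -0.55. Scaled to the 4 detected spike-in features named dmr, both miRNAs were lower in the TULP group, with differences of -0.94 (limma, adjusted p = 0.0326) and -1.20 (adjusted p = 0.0223), and so were 73 of the 151 miRNAs (48.3%), with a median of -0.75. Relative to that median the differences were -0.19 and -0.45. Scaled to the 2 labelling spike-ins dmr_285 and dmr_31a alone, the differences were -0.98 (adjusted p = 0.0150) and -1.24 (adjusted p = 0.0209), with 82 of 151 miRNAs (54.3%) lower and a median of -0.78. Under these scalings the median of all miRNAs moved the same way as both members. In bulk tissue, fewer cells that hold these miRNAs and less of them per cell cannot be told apart.

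**Figure D2:**
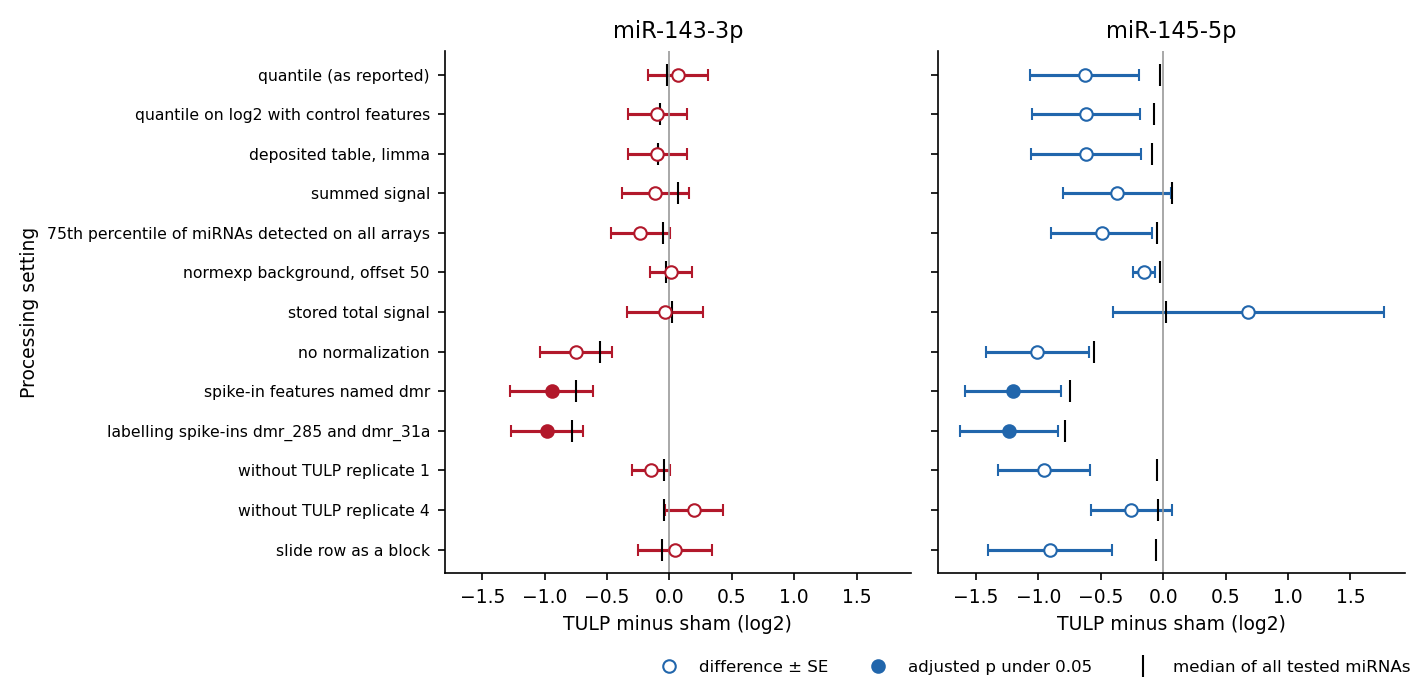
Difference TULP minus sham on the log2 scale with its SE for miR-143-3p and miR-145-5p under the normalization used here and under other scalings, signals and sets of arrays; filled points passed an adjusted p of 0.05 in limma and black ticks give the median of all tested miRNAs. Of the settings drawn, only the 2 spike-in scalings, at -0.94 and -0.98 for miR-143-3p and -1.20 and -1.24 for miR-145-5p, passed it.

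The arrays lay on 1 slide in 2 rows, with sham replicate 4 and TULP replicates 1, 2 and 3 in the first row and the others in the second. With the slide row as a block the difference was 0.045 for miR-143-3p and -0.91 for miR-145-5p (limma, adjusted p = 0.948 and 0.250). Within the first row miR-145-5p differed by 0.037, and within the second row, where TULP replicate 4 stood alone against 3 sham arrays, by -1.85 (adjusted p = 0.176). For miR-143-3p the values were 0.51 and -0.42. In these fits the lone array of a row is assumed to vary like the others.

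Each miRNA was read by a brighter and a dimmer probe. The 19-base probe of miR-143-3p gave 339 to 912 and the 18-base probe 62.2 to 179, and their ratio stayed between 5.05 and 5.45 on the 8 arrays. Before normalization the group difference was -0.74 by the longer probe and -0.78 by the shorter probe on the log2 scale. The median coefficient of variation over the spots of a probe was 2.20%.

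For miR-145-5p the 14-base probe gave 6.89 to 24.5 and the 13-base probe 3.35 to 14.7, with a ratio of 1.67 to 2.06. The difference before normalization was -0.81 by the 14-base probe on all arrays. Without TULP replicate 4, where the 13-base probe was not detected, it was -0.58 by the 14-base probe and -0.70 by the 13-base probe. The median coefficient of variation over its spots was 10.9%, and the highest was 25.2%. The 13-base probe was just detected on TULP replicate 3, with a signal of 4.40 against a limit of 4.22, and not detected on TULP replicate 4, with a signal of 3.35 against a limit of 3.91. The value of 6.89 on TULP replicate 4 therefore counts 1 probe, while every other array counts 2. With both probes summed on each array, TULP replicate 4 had 10.2, still the lowest of the 8, and the normalized group difference was -0.49 (limma, adjusted p = 0.370).

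**Figure D3:**
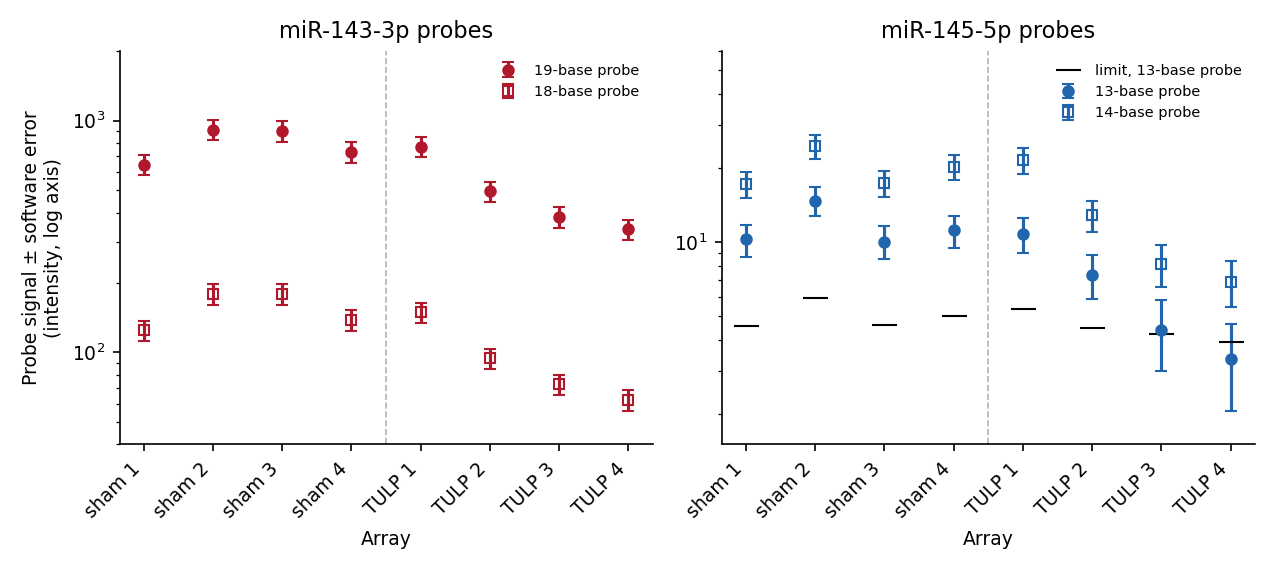
Signal of each probe of miR-143-3p and miR-145-5p on each array (intensity before normalization, log axis) with the error given by the scanner software; black marks give the detection limit of the 13-base miR-145-5p probe. The miR-143-3p probes lie between 62.2 and 912, and the 13-base miR-145-5p probe falls below its limit on TULP replicate 4 alone.

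The software's own stored total was a poor guide to miR-145-5p on TULP replicate 4. It was 408 there, against 6.89 from the detected probe. The excess of 400.8 equalled the stored total of miR-143-3p on the same array to within 0.001, and miR-143-3p was the 1 detected miRNA for which this held. Of 759 totals with every probe detected, 0 exceeded the sum of their probes by over 1%, while 352 of 432 totals with an undetected probe did. With stored totals the difference of miR-145-5p turned to 0.68 (limma, adjusted p = 0.677), so the sums over detected probes were used here.

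The passenger strands gave no detectable signal. miR-145-3p, the passenger strand of miR-145, had 16 values from 2 probes on 8 arrays, which ran from -0.918 to 0.861 against limits of 3.38 to 4.25. Of these 6 were below 0, and the highest was 0.763 times its error. miR-143-5p ran from -0.373 to 1.57 against limits of 3.37 to 4.25, with 5 values below 0. Neither strand was tested between groups, since neither had a level on any array.

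The strand ratio can thus be given only as a bound, the signal of the guide strand over the summed detection limits of the passenger strand's probes. miR-143-3p was at least 114-, 139-, 155- and 117-fold brighter than miR-143-5p on the sham arrays. On the TULP arrays it was at least 108-, 75.5-, 56.9- and 52.9-fold brighter. A bound moves with both the signal of miR-143-3p and the limits of the undetected probes, whose sums were 6.75 to 7.86 on the sham arrays and 7.58 to 8.497 on the TULP arrays, so a lower bound shows no lower ratio.

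For miR-145 the bounds were far smaller. miR-145-5p was at least 4.05-, 5.02-, 3.95- and 4.22-fold brighter than miR-145-3p on the sham arrays. The bounds were 3.804-, 2.58- and 1.56-fold on TULP replicates 1 to 3, and TULP replicate 4 gave none, because its miR-145-5p signal was under the summed limits of 7.56. That signal of 6.89 counts 1 probe of miR-145-5p, while the limits are summed over 2 probes of miR-145-3p. With both miR-145-5p probes summed the signal there was 10.2, above those limits. The strands are read by different probes, so these are bounds on signal and not on molecules.

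The signal of miR-143-3p over that of miR-145-5p was compared within each array before normalization, where scaling between arrays cancels. The ratio was 28.1, 27.8, 39.5 and 27.7 in the sham rats, and in the TULP rats 28.5, 29.2, 36.3 and 58.2. The arrays other than sham replicate 3 and TULP replicates 3 and 4 lay between 27.7 and 29.2, although their miR-143-3p signals ran from 590 to 1091. With both miR-145-5p probes summed, TULP replicate 4 had a ratio of 39.1, close to that of sham replicate 3. Since the 2 miRNAs are read by different probes, the ratio is not one of molecules, and only its change between arrays is compared.

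The log2 ratio averaged 4.93 ± 0.25 (SD, n = 4) over the sham arrays and 5.19 ± 0.48 (SD, n = 4) over the TULP arrays. The difference of 0.26 did not pass the test (exact permutation over 70 labellings, two-sided, p = 0.457, the 1 ratio tested). The smallest two-sided p that 4 arrays against 4 allow is 0.0286. TULP replicate 4 carried most of the difference, which was 0.035 without it (exact permutation p = 0.743) and 0.12 with both probes summed (exact permutation p = 0.486). With single probes the difference ran from 0.035 to 0.11 over the 4 pairs of probes. The 2 pairs with the 13-base probe, at 0.093 and 0.11, leave out TULP replicate 4, where that probe was not detected, and the 2 pairs with the 14-base probe, which keep it, gave 0.035 and 0.069. Within the first slide row it was 0.17 and within the second 0.89, again with TULP replicate 4 as the lone TULP array.

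The ratio did depend on the scale. Taken on quantile normalized values, the difference was 0.70, and this had the smallest p the design allows (exact permutation p = 0.0286). Quantile normalization maps bright and dim miRNAs of an array by different factors, so a ratio taken after it is not the ratio of the measured signals. With normexp background correction and an offset of 50 the difference was -0.60 (exact permutation p = 0.0857), and with stored totals it was -1.21 (exact permutation p = 0.571). The offset adds the same amount to bright and dim signals, so the ratio after it is not that of the measured signals either. Spot means of miR-145-5p ran from 6.31 to 45.4, below that offset.

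**Figure D4:**
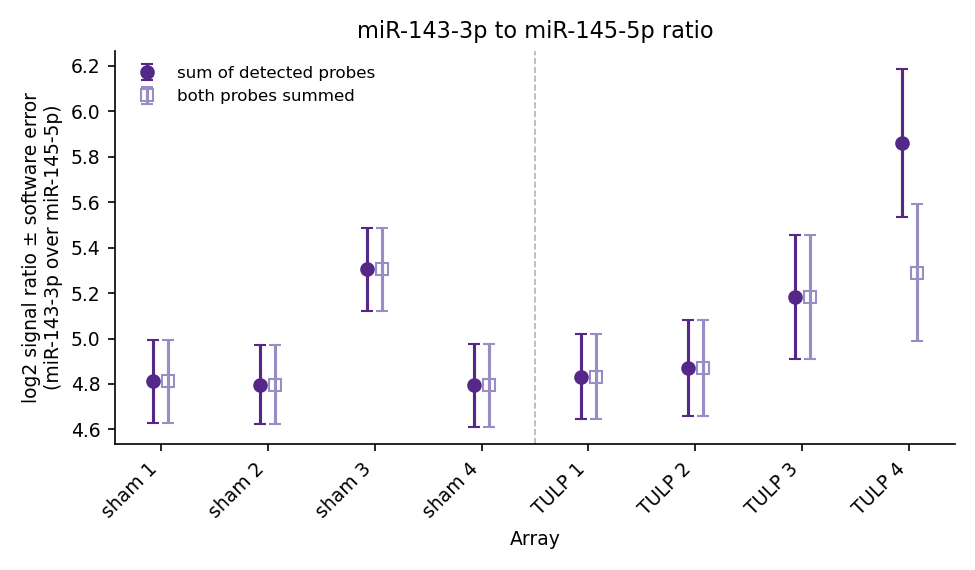
Signal of miR-143-3p over that of miR-145-5p on each array before normalization, as a log2 ratio with the error propagated from the scanner software; filled marks sum the detected probes and open marks sum both probes on each array. Most arrays lie between 4.79 and 4.87, and TULP replicate 4 moves from 5.86 to 5.29 when both probes are summed.

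Over the 8 arrays, the normalized log2 values of miR-143-3p and miR-145-5p had a Pearson r of 0.72. Among the other miRNAs tested, miR-145-5p stood at place 7 in likeness to miR-143-3p. The values most like miR-143-3p were those of miR-27b-3p (r = 0.95), miR-429 (r = 0.90) and miR-200b-3p (r = 0.88), of which miR-429 and miR-200b-3p belong to the epithelial miR-200 family. The values most like miR-145-5p were those of miR-10a-5p (r = 0.90), miR-200c-3p (r = 0.88) and miR-26a-5p (r = 0.87). For miR-143-3p, miR-27b-3p and miR-200b-3p the highest value was that of TULP replicate 1, and no correlation was taken without that array. These correlations are given as a description only, over 8 arrays that share a slide and a normalization.

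Other miRNAs tied to the smooth muscle phenotype differed between the groups where miR-143-3p did not pass the test. This list and those below were chosen with earlier results of these data known, so their counts are a description only. The median difference of the 6 miRNAs listed for the contractile side was -0.73. Of the 6, 4 were lower in the TULP group (limma, adjusted p under the threshold), against 25 of 151 (16.6%) for all miRNAs. These were miR-1-3p (-0.74 ± 0.18 SE, adjusted p = 0.0201), miR-133a-3p (-0.96 ± 0.16 SE, adjusted p = 0.00605), miR-133b-3p (-0.72 ± 0.17 SE, adjusted p = 0.0163) and miR-204-5p (-1.14 ± 0.21 SE, adjusted p = 0.00912). The first 3 are the muscle miRNAs best known from striated muscle, while miR-204-5p is known to restrain calcification and proliferation of vascular smooth muscle. miR-10a-5p and miR-28-5p did not pass, with -0.056 and -0.023. Under the other scalings 4 to 6 of the 6 were lower, and 0 were higher. Without normalization 4 were lower, beside 31.8% of all miRNAs. By the 4 spike-in features 5 were lower, beside 48.3%, and by the 2 labelling spike-ins 6, beside 54.3%.

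Of 7 miRNAs listed for the dedifferentiated or proliferating side, 5 could be tested and 2 were higher in the TULP group, against 21 of 151 (13.9%) for all miRNAs, with a median of 0.39. These were miR-21-5p (1.76 ± 0.15 SE, adjusted p = 0.000785), known to promote growth and fibrosis after injury, and miR-221-3p (1.69 ± 0.50 SE, adjusted p = 0.0379), known to promote proliferation of vascular smooth muscle. Quantile normalization gave miR-21-5p the same value, 11.48, on every TULP array, so its TULP SD was 0. miR-221-3p stood at the floor of 0.96 on sham replicates 2 and 4, so its difference depends on the floor. miR-21-5p stayed higher when scaled to the spike-ins, while miR-221-3p, at 0.91 by the 4 spike-in features (limma, adjusted p = 0.0902), did not pass. Of the 3 that did not pass, miR-24-3p had 0.13, miR-146a-5p 0.39 and miR-26a-5p -0.42 (limma, adjusted p = 0.0675). By the 4 spike-in features miR-26a-5p (-1.09, limma, adjusted p = 0.00801) and miR-24-3p (-0.69, adjusted p = 0.0424) were lower, and miR-26a-5p was lower under 5 of the 6 other scalings, the exception being the summed signal. The median of these 5 turned to -0.27 by the 4 spike-in features and to -0.071 without normalization. For all miRNAs these medians were lower still, -0.75 and -0.55. Of all miRNAs 48.3% were lower by the 4 spike-in features and 31.8% without normalization.

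Of 7 stromal miRNAs, 2 were higher and 2 lower, beside 13.9% and 16.6% of all miRNAs, with a median of -0.00033. The 2 with the largest differences were miR-214-3p (0.92, limma, adjusted p = 0.0161) and miR-199a-5p (0.60, adjusted p = 0.0257), which are made from 1 transcript of fibroblast-like cells. The other strand of miR-199a, miR-199a-3p, was brighter and did not pass (0.24, limma, adjusted p = 0.116). The 2 lower were miR-100-5p (-0.56, adjusted p = 0.0163) and miR-99a-5p (-0.27, adjusted p = 0.0336), which belong to 1 seed family. Scaled to the 4 spike-in features the first pair did not pass (0.15 and -0.040), 4 of the 7 were lower, beside 48.3% of all miRNAs, and the stromal median was -0.75, the median of all miRNAs.

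**Figure D5:**
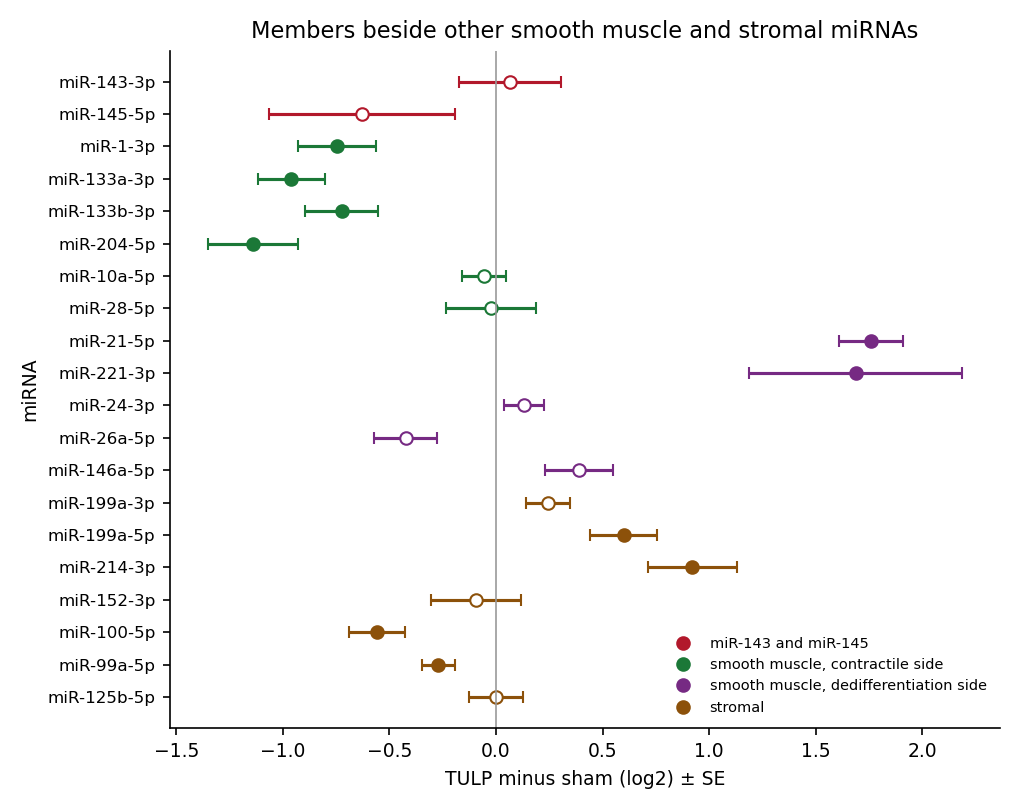
Difference TULP minus sham on the normalized log2 scale with its SE for miR-143-3p, miR-145-5p and the tested miRNAs of the smooth muscle and stromal lists; filled points passed an adjusted p of 0.05 in limma. miR-143-3p (0.068) and miR-145-5p (-0.63) did not pass, while 4 of the 6 miRNAs of the contractile side did, at -0.72 to -1.14.

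Among markers of other cell types in the tissue, the striated muscle and leukocyte lists had more than 1 miRNA past the test in 1 direction. Of 8 striated muscle miRNAs 5 were tested and 4 were lower (16.6% of all miRNAs were; median -0.74), 3 of them shared with the contractile list, and the summed normalized level of the list was on the log2 scale 11.99 to 12.48 in the sham rats and 11.38 to 12.19 in the TULP rats. miR-133a-5p was the fourth (-0.93), the heart miRNAs miR-208a-3p and miR-208b-3p and also miR-499-5p were detected on 0 arrays, and miR-206-3p, known from skeletal muscle, was detected on all arrays with 0.25 (adjusted p = 0.795). Of 5 leukocyte miRNAs 4 were tested and 2 were higher (13.9% of all miRNAs were), miR-223-3p (2.10) and miR-142-3p (2.01), with a median of 1.45 and a summed level of 5.10 to 5.67 on the sham arrays against 6.0 to 7.04 on the TULP arrays. miR-142-3p was undetected on sham replicates 1 and 4, which hold the floor value of 0.96, so its difference depends on the floor. The striated muscle and leukocyte lists kept these counts without normalization and by the 4 spike-in features, apart from 1 leukocyte miRNA that was lower there. Of all miRNAs 31.8% were lower and 3.31% higher without normalization, and 48.3% lower and 3.31% higher by the spike-in features.

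Of 8 epithelial miRNAs 7 were tested and 0 passed in limma, while 3 had an unadjusted p under 0.05, with a median of -0.68. Without normalization 4 of the 7 were lower, beside 31.8% of all miRNAs, and by the 4 spike-in features 5 were, beside 48.3%. The largest differences were -2.03 for miR-375-3p and -1.46 for miR-200c-3p (limma, adjusted p = 0.0675 and 0.0753). miR-375-3p was detected on 5 arrays and holds the floor value on the rest, so its difference depends on the floor. The summed level of the epithelial list was 8.93 to 9.40 on the sham arrays and 8.59 to 9.87 on the TULP arrays. Of 3 erythroid miRNAs 2 were tested and 1 was lower (16.6% of all miRNAs were), miR-486 (-0.79, limma, adjusted p = 0.0498). The median of the 2 was -0.73. With the summed signal 0 passed, and also 0 at the 75th percentile of the miRNAs detected on all arrays. Of 2 endothelial miRNAs miR-126a-3p was tested and did not pass (0.0054, limma, adjusted p = 0.992). By the 4 spike-in features it was lower (-0.77), near the median of all miRNAs (-0.75), of which 48.3% were lower. The summed stromal level was 10.46 to 10.65 on the sham arrays and 10.53 to 10.68 on the TULP arrays. The part of these cell types in the values of miR-143-3p and miR-145-5p was not tested.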

How the data were processed

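Total RNA of 8 rats was labelled with Cy3 and hybridized to 1-colour rat miRNA arrays, which the authors read with Agilent Feature Extraction 10.7.1.1. Per the file headers the probe and spot values are intensities on a linear scale, background subtracted and not normalized between arrays, with a detection call per miRNA. The authors also deposited a table of quantile normalized log2 values, used as an alternative. Each array held 12128 spots of 1806 probes for 758 rat miRNAs, and 0 spots were saturated. The number of arrays limits the precision.

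The sample titles gave each array its group and number. Signals were summed over probes above 3 times their error and set to 0.1 where none was, which gave the detection call of the files with 0 mismatches. They were quantile normalized over the 758 rat miRNAs, floored at 1.94 (0.96 in log2 units, the median over arrays of the lowest detected normalized signal) and converted to log2. The 151 miRNAs detected on at least 4 arrays entered a fit by limma 3.58.1 under R 4.3.3 (lmFit, eBayes) with group alone as a term, Benjamini-Hochberg adjustment and a threshold of 0.05. The ratio of the 2 miRNAs was taken on signals before normalization and compared by an exact permutation test in Python 3.11.15. The fit and the permutation test were tested on simulated data. Alternatives were the signal per miRNA, background correction, scaling, filter, floor, slide row, replicate block, the methods' t-test and leaving out each array. The miRNAs named were all 4 members, list members past the adjusted p, at most 2 of each other list with the largest differences, and the 3 closest in correlation to each detected member. To these were added miR-10a-5p, miR-28-5p, miR-24-3p, miR-26a-5p, miR-146a-5p, miR-199a-3p, miR-100-5p, miR-99a-5p, miR-206-3p and the list members at background. Members and lists were chosen with earlier results of these data known. RefSeq sequences and positions are those of GRCr8.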

Additional observations from a re-analysis of the deposited data

Results flagged for a closer look

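In the sham group the log2 ratio of miR-143-3p to miR-145-5p was 4.81, 4.80, 5.30 and 4.79, and sham replicate 3 lay apart from the others. Its gap to the nearest array, divided by the range of the group, was 0.964, above Dixon's 95% critical value for 4 samples. Of 14 groups of 4 values checked in this way 1 passed the limit, and chance gives about 1 in 20. Without sham replicate 3 the difference in ratio between the groups was 0.39 in place of 0.26 (exact permutation p = 0.171).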

How the results depend on the processing

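For miR-143-3p, with a difference of 0.068, the sign turned under 13 of 27 alternatives. The values were -0.036 with stored totals, -0.75 without normalization and also at the 75th percentile of all miRNAs (on these arrays the value of an undetected miRNA, so that nothing is scaled), -0.23 at that of the miRNAs detected on all arrays, -0.11 with the summed signal, -0.94 with the 4 spike-in features, -0.98 with the 2 labelling spike-ins (chosen after seeing the data), -0.10 with quantile normalization including control features, -0.10 with the deposited table in limma and in the methods' t-test, and -0.42 within the second slide row. For miR-145-5p, with -0.63, the sign turned with stored totals (0.68) and within the first slide row (0.037), and the adjusted p in limma passed with the 4 spike-in features (-1.20) and the 2 labelling spike-ins (-1.24). The cause of these changes was not tested. The ratio turned with stored totals (-1.21) and with normexp and its offset of 50 (-0.60), and passed on quantile normalized values (0.70).

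Leaving out 1 array gave -0.15 to 0.20 for miR-143-3p, -0.95 to -0.26 for miR-145-5p (limma, adjusted p of 0.0814 to 0.642, the lowest without TULP replicate 1 and the highest without TULP replicate 4) and 0.035 to 0.39 for the ratio. For miR-143-3p the sign turned without TULP replicate 1 (-0.15) or sham replicate 4 (-0.033), and miR-145-5p moved by over 1.5 times without TULP replicate 1 (-0.95) or 4 (-0.26).

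The replicate numbers did not pair the arrays. The deviations of same-numbered arrays had correlations of 0.13, -0.097, 0.27 and -0.10, and 2 of 8 arrays were most like their own number. With the replicate number as a block the differences were 0.068 and -0.63 (limma, adjusted p = 0.872 and 0.199) and 0.26 for the ratio (exact sign-flip permutation, p = 0.625), and calls over all miRNAs went from 46 to 37. They were 28 with the slide row as a block and 13 with no filter on dim miRNAs. The methods' t-test gave 17 features past its thresholds and 43 after Benjamini-Hochberg adjustment. miR-145-3p and its strand ratio have no value under any alternative that uses detection calls, since the strand was detected on 0 arrays.

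Depth of signal limited miR-145-5p, which on TULP replicates 3 and 4 lay near the detection limit, and both passenger strands. The smallest permutation p of 0.0286 is the limit of the ratio test.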
